A study of Drosophila melanogaster with 12 samples.

Results

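The ovaries of nxf2 mutant flies that carry Panx FL10B were compared with those of nxf2 mutant flies that do not. Both groups are nxf2 -/- and have 2 RNA-seq libraries each, so the loss of nxf2 is shared and the groups differ by Panx FL10B, which the labels call tethered. The genes described were all rows of the deposited count table apart from small RNA genes, which left 15130 of 15446 gene rows. Of these, 8385 had enough counts to be tested. The study as a whole holds 12 libraries of Drosophila melanogaster ovaries in 6 groups of 2. Of the other 4 groups, 2 served here as a second pair with and without Panx FL10B: the nxf2 +/- heterozygote with Panx FL10B and W1118, the wild-type stock. The last 2 groups, attp2, labelled wild type, and the nxf2 knockdown, entered the shared model and the count of genes near absent in the Panx FL10B libraries, and no difference between them is reported. Their levels are given for Panx and w only. The nxf2 mutations were made by CRISPR. The labels give the age of all flies as 3-5 without a unit and name yeast food and 25°C. FL10B is not spelled out in the sources used here, nor is the promoter that drives the tethered Panx, and nothing there says that replicates came from separate animals, so the p-values weigh differences against the scatter of these libraries only, which may be technical.

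Piwi, guided by piRNAs, finds nascent transposon transcripts in the nucleus of germline and follicle cells, and Panx (Panoramix), Nxf2 and Nxt1 act below it to have the target locus packed into heterochromatin. Nxf2 is a relative of the mRNA export receptor that lost its general export role, and placing Panx on a nascent reporter RNA by tethering is a standard way to start silencing without Piwi. The ovary itself is a series of egg chambers of rising age, in which nurse cells feed the oocyte and the follicle cells around it secrete first the vitelline membrane and then, in the last stages, the chorion.

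The 4 libraries compared held between 6757748 and 8817078 counts, and those of the second pair between 3811630 and 6467850. Replicates of the nxf2 mutant differed more than those of the other 3 groups, as the chi-square of their counts across genes, divided by its degrees of freedom, was 11.5 against 1.59 to 2.47. It was 35.72 in attp2 and 16.75 in the nxf2 knockdown. Through the shared model, the scatter of those replicates enters each SE and p-value below. The submitters' processing notes name a counting tool for the nxf2 mutant and W1118 libraries and not for the 4 libraries with Panx FL10B. The presence of Panx FL10B and the set of libraries therefore cannot be told apart in any difference below. The comparison of the heterozygote with Panx FL10B and W1118 crosses the same boundary between library sets, with 4 libraries that the first comparison does not use. Unlike the mutant pair, its groups also differ in nxf2 genotype, nxf2 +/- against wild type. That step is part of each difference in the second pair and of the difference of the 2 differences. The difference of the 2 differences asks where the mutant pair parted from that second pair. Levels are normalised CPM, that is counts scaled to the library total with TMM factors, given for each library in the order of replicates 1 and 2, and comparisons of a gene over groups are of these levels. A gene was called when edgeR's quasi-likelihood test over all tested genes gave a Benjamini-Hochberg adjusted p under 0.05, and all adjusted p-values below are from that test.

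The targeted gene and its partners were examined first. nxf2 stood at 29.9 and 33.6 CPM in the nxf2 mutant and at 30.2 and 30.1 CPM with Panx FL10B (log2 fold change -0.07, SE 0.148, adjusted p = 0.731). In W1118 it was at 69.5 and 68.8 CPM, and heterozygotes carrying Panx FL10B showed 34.6 and 35.8 CPM. The nxf2 RNA was below W1118 in the other 3 groups, and the mutants were not told apart from the heterozygote by this RNA level, so the genotypes are taken from the labels. Panx, listed as CG9754, was at 40.5 and 39.1 CPM in the mutant and at 292 and 299 CPM with Panx FL10B. This rise of 7.42-fold (log2 2.89, SE 0.106, adjusted p = 1.17e-10) was matched in the heterozygote, where 47.4 and 44.1 CPM in W1118 stood against 339 and 340.3 CPM, a log2 difference of 2.90 (SE 0.109). The white gene w, which pigments the eye and marks many fly transgenes, had no count in W1118, 0.559 and 0.2597 CPM in the mutant, 4.02 and 3.31 CPM in the mutant with Panx FL10B and 4.16 and 3.68 CPM in the heterozygote with Panx FL10B. Its rise in the mutant pair passed (log2 3.08, SE 0.392, adjusted p = 5.42e-05). Nxt1, the small partner of export receptors, was at 21.5 and 28.4 CPM without and 22.96 and 24.2 CPM with Panx FL10B (log2 -0.08, SE 0.204, adjusted p = 0.789). piwi was at 309 and 305 and then 285 and 306 CPM (log2 -0.06, SE 0.311, adjusted p = 0.9103). This SE takes in the replicates of attp2, at 1592 and 1006 CPM, and of the nxf2 knockdown, at 727 and 1494 CPM. Among W1118, the heterozygote with Panx FL10B and the 2 mutant groups, the 4 libraries labelled with Panx FL10B were the high ones for both Panx and w. Outside them, libraries without Panx FL10B were high too. Panx was at 131 and 156 CPM in attp2 and at 232 and 225 CPM in the nxf2 knockdown. In the same order, w was at 30.9 and 26.1 CPM and at 28.3 and 26.8 CPM. For Nxt1 and piwi the 2 mutant groups overlapped.

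**Figure D1:**
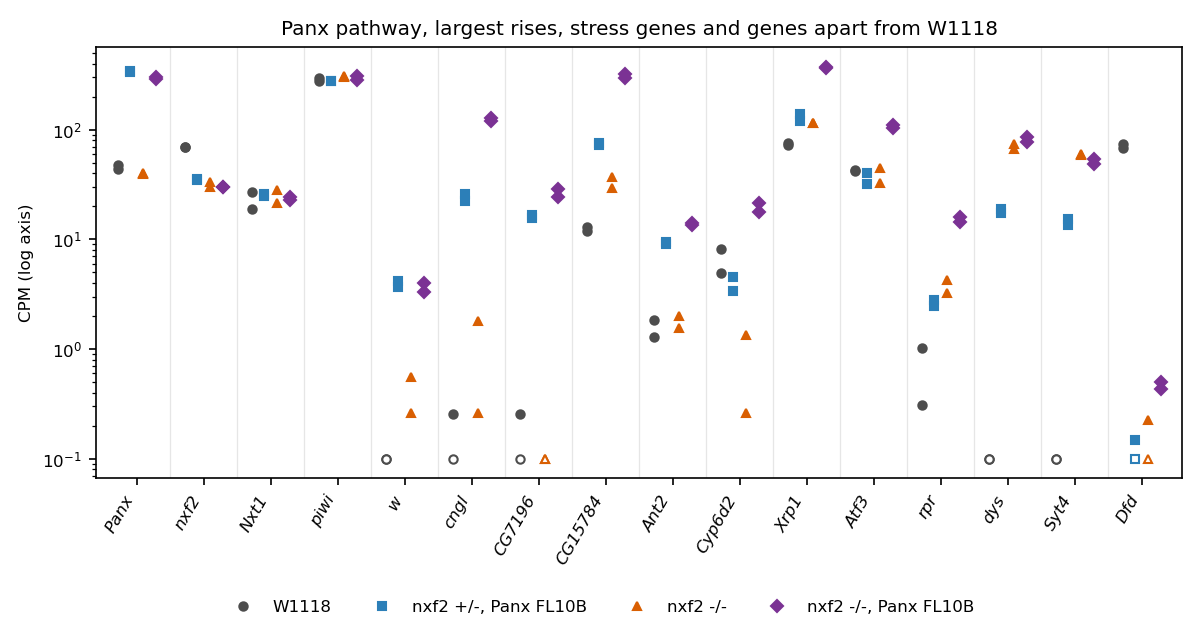
CPM on a log axis for 16 genes in each of the 2 libraries of 4 groups. Each symbol is 1 library, and open symbols at the foot of the axis are libraries with no count. Panx, w, cngl, CG7196, CG15784 and Ant2 are higher in the 4 libraries with Panx FL10B than in the other 4, Cyp6d2, Xrp1, Atf3 and rpr are highest in the nxf2 mutant with Panx FL10B, and dys and Syt4 have no count in W1118.

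Across the tested genes, 3138 were called between the 2 mutant groups, 37.4% of 8385. Of these, 1451 (17.3%) were higher and 1687 (20.1%) lower with Panx FL10B. These 2 shares are the background for each count of list members in the mutant pair below. Large falls were more frequent than large rises, with 592 genes lower and 270 higher by at least 2-fold, and 310 lower and 105 higher by at least 4-fold. In the second pair, 1254 genes (15.0%) were higher and 1293 (15.4%) lower in the heterozygote with Panx FL10B than in W1118. The 2 pairs share no library. Called in the same direction in both were 1013 genes, 32.28% of those called in the mutant pair and 39.77% of those called in the second pair, and 275 genes were called in opposite directions. The difference of the 2 differences was called higher for 790 genes (9.42%) and lower for 952 (11.4%). It was called lower for 165 of the 310 genes that fell by at least 4-fold in the mutant pair, or 53.23%, and higher for 20 of the 105 that rose by as much. Without the first or the second library of the mutant with Panx FL10B, 1885 and 1873 genes were called in the mutant pair.

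**Figure D2:**
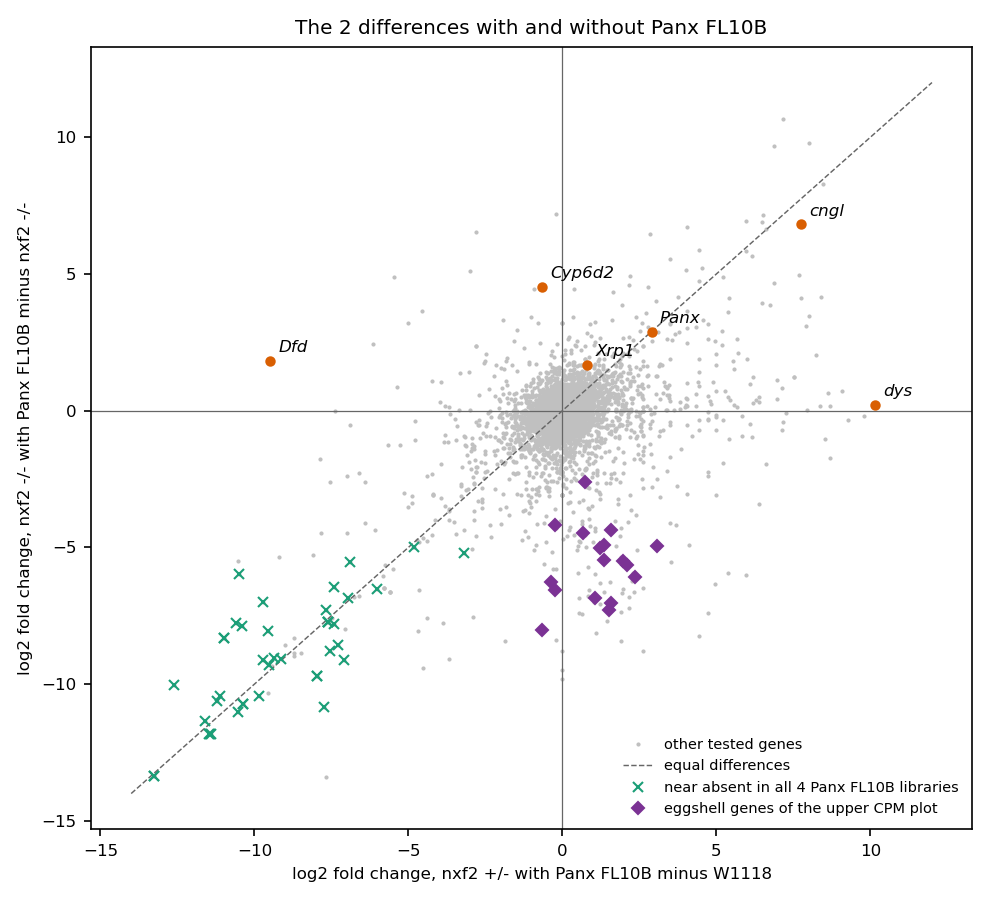
Log2 fold change of 8385 genes in the nxf2 mutant pair (y axis) against the heterozygote with Panx FL10B minus W1118 (x axis), each point a gene. Genes near absent in all 4 Panx FL10B libraries lie near the line of equal differences at the lower left, as does Panx at the upper right, while the eggshell genes lie low on the y axis on either side of, and mostly to the right of, the vertical line at 0.

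Some of the falls divided the 4 libraries with Panx FL10B from the other 8 of the series, whatever the nxf2 genotype. Panx FL10B and library set coincide in this split. A total of 44 tested genes, 41 of them not small RNA genes, were under 0.5 CPM in each of the 4 libraries with Panx FL10B and over 2 CPM in each of the other 8 libraries of the series, and 3 genes showed the reverse. These 44 genes were picked by those levels, so their fall is a description. For 21 of them another gene lay within 10% in all 8 other libraries. The proteasome subunit gene Prosalpha1 and CG30382 were each at 160.1 and 183 CPM in the nxf2 mutant and had no count in the 4 Panx FL10B libraries. The same held for trpml and CG42638, both at 27.1 and 28.3 CPM in the mutant. CR42722, CR42723 and CR41597 were at 60.1 and 57.3 CPM, at 59.8 and 57.1 CPM and at 59.6 and 55.97 CPM in the mutant, also with no count in the Panx FL10B libraries. Hsp70Aa, a heat shock gene with near-identical copies, had 34.4 and 33.1 CPM in the mutant and none in those 4 libraries. Of the 12 largest falls at 10 CPM or more, CR43482 was the only one that was also called in the difference of the 2 differences. It was at 187 and 158 CPM in the mutant, 135 and 144 CPM in W1118 and 0.378 and 0.883 CPM in the heterozygote with Panx FL10B, with no count in the mutant with Panx FL10B, at least 863-fold lower than the mutant at a floor of 3 counts over the group. The other 11 were Prosalpha1, CG30382, CR42722, CR42723, CR41597, CG40005, Hsp70Aa, CG41454, CG42638, trpml and CR32011, at least 125-fold to 848-fold lower by the same floor. How the authors' counting treated reads of near-identical genes in each set was not tested.

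The genes of the outer eggshell had far less RNA in the nxf2 mutant with Panx FL10B than in the nxf2 mutant. All 9 named chorion protein genes, 5 of the X-chromosome cluster and 4 of the third-chromosome cluster, fell by between 6.15-fold (Cp15) and 94.8-fold (Cp7Fb), and 6 of 7 tested late secreted and crosslinking genes fell by between 18.1-fold (Mur2B) and 258-fold (Muc12Ea). The second pair did not show this fall: there 4 of 6 X-cluster genes, 2 of 4 third-chromosome genes and 4 of 7 late secreted genes were called higher in the heterozygote with Panx FL10B than in W1118, and 1 was called lower. The difference of the 2 differences was called lower for 5 of 6, 4 of 4 and 6 of 7 of these genes. In RNA of whole ovaries, fewer cells of a type and less RNA per cell cannot be told apart.

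Within the X-chromosome cluster, whose genes follicle cells amplify before they transcribe them, Cp38 was the most abundant. It stood at 3724 and 5949.6 CPM in the mutant and 98.4 and 97.05 CPM with Panx FL10B, at 2083 and 1978 CPM in W1118 and at 8656 and 8730.2 CPM in the heterozygote with Panx FL10B. The log2 fold change was -5.63 (SE 0.205, adjusted p = 1.17e-10) in the mutant pair and 2.10 (SE 0.173, adjusted p = 1.01e-06) in the second, so the gene moved in opposite directions in the 2 pairs. Cp36 went from 733 and 1119 CPM to 56.7 and 32.4 CPM, a log2 change of -4.37 (SE 0.247, adjusted p = 8.59e-08) against 1.56 in the second pair. Cp7Fa, Cp7Fb and Cp7Fc were at 7.15 and 7.199, 5.897 and 6.91 and 24.6 and 19.6 CPM with Panx FL10B, with log2 changes of -6.08, -6.57 and -6.26. In the mutant, Cp7Fa was at 353 and 622 CPM, Cp7Fb at 721 and 491 CPM and Cp7Fc at 2021 and 1373 CPM. The sixth listed gene of the cluster, CG1440, does not carry a chorion protein name and rose instead, from 164 and 151 to 241 and 249.7 CPM (log2 0.64, SE 0.0936, adjusted p = 0.000140).

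The third-chromosome cluster holds Cp15, Cp16, Cp18 and Cp19, and their levels differed between the 2 nxf2 mutant libraries as well. Cp16 was at 97.9 and 250.1 CPM in the mutant, 7.03 and 3.89 CPM with Panx FL10B, 119 and 97.2 CPM in W1118 and 795 and 1026 CPM in the heterozygote with Panx FL10B. Its log2 change was -4.97 (SE 0.548, adjusted p = 0.000242), with a rise of 3.08 (SE 0.426, adjusted p = 0.00108) in the second pair. Cp19 went from 674 and 1567 CPM to 44.5 and 29.2 CPM (log2 -4.92, SE 0.445, adjusted p = 6.75e-05). Cp18 went from 174 and 366 to 14.9 and 9.36 CPM (log2 -4.46, adjusted p = 0.0117), and Cp15 from 807 and 1409 to 235 and 125 CPM (log2 -2.62, adjusted p = 0.000269). For each of the 4 genes the groups did not overlap, as held for 6203 of all 8385 tested genes. With the spread estimated from the compared groups alone, 2 of the 4 passed, and Cp16 had an adjusted p of 0.0542.

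Of the listed eggshell genes, the mucin-like Muc12Ea and Muc4B fell the most. Muc12Ea was at 1231 and 1538 CPM in the mutant and 5.77 and 4.896 CPM with Panx FL10B, with 1427 and 1529 CPM in W1118 and 975 and 876 CPM in the heterozygote with Panx FL10B. Its log2 change was -8.01 (SE 0.175, adjusted p = 7.07e-13) in the mutant pair and -0.68 (SE 0.117) in the second. Muc4B went from 576 and 630.4 CPM to 4.27 and 3.31 CPM (log2 -7.30, SE 0.173, adjusted p = 1.59e-12), against a rise of 1.53 in the second pair. Both genes were low in the 2 libraries of the mutant with Panx FL10B and high in the other 6. Mur11Da went from 276 and 384 to 2.51 and 2.45 CPM and Mur2B from 2359 and 2492 to 137 and 131 CPM. yellow-g and yellow-g2, relatives of yellow that are needed for a rigid eggshell, were at 3.51 and 2.45 CPM and 1.51 and 1.73 CPM with Panx FL10B, with log2 changes of -5.45 and -5.01. Pxt, a peroxidase gene that acts as a cyclooxygenase in follicle maturation, did not pass, at 332 and 357 and then 294 and 302 CPM (log2 -0.21, adjusted p = 0.0733).

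**Figure D3:**
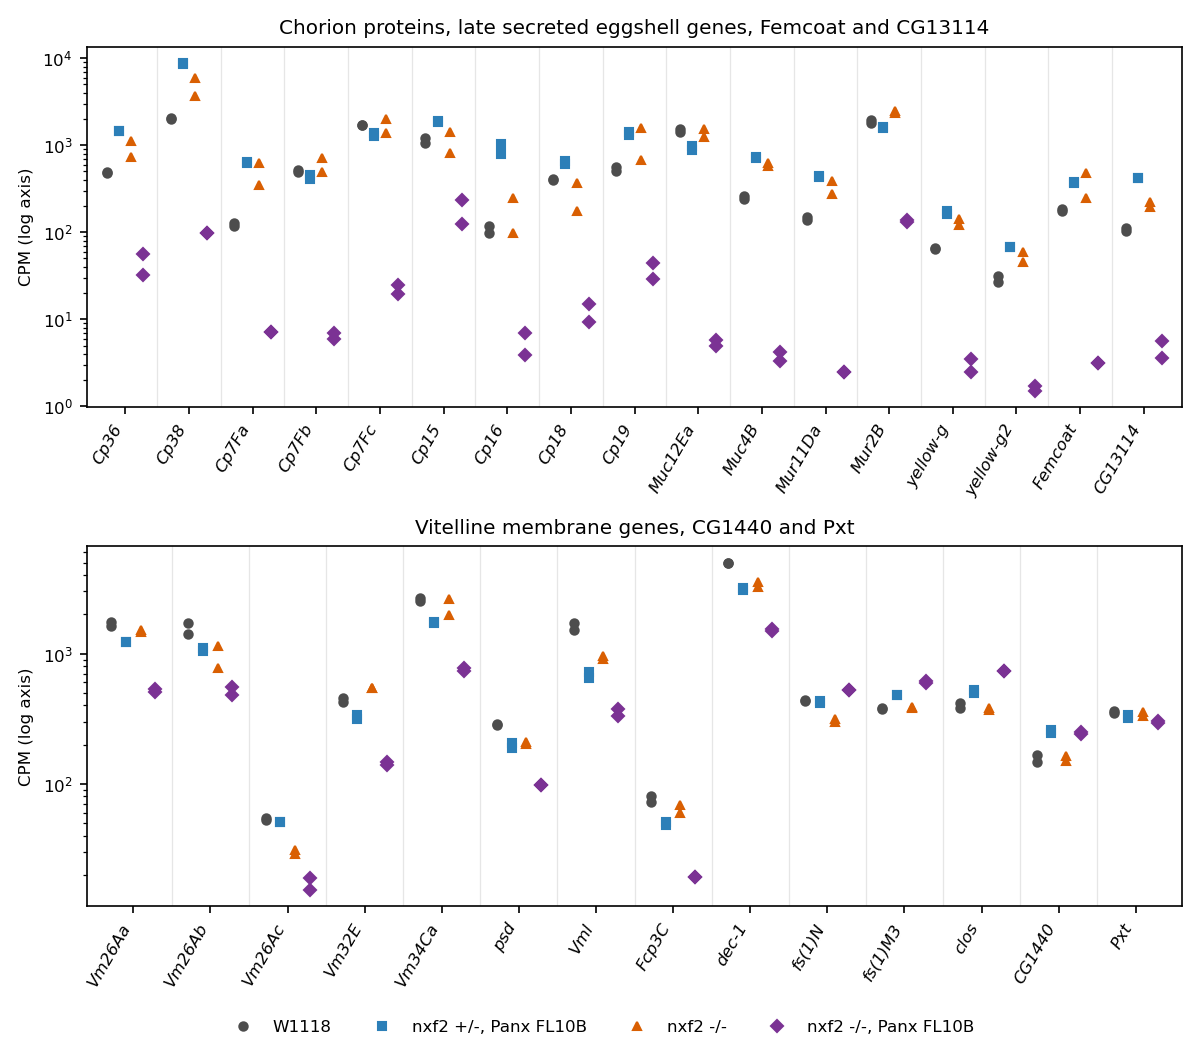
CPM on log axes for eggshell genes in each of the 2 libraries of W1118 (circles), the heterozygote with Panx FL10B (squares), the nxf2 mutant (triangles) and the nxf2 mutant with Panx FL10B (diamonds). In the upper plot the diamonds lie between 1.51 and 235.1 CPM, under the other 6 libraries for 17 of 17 genes, and in the lower plot they are under the others for 9 of the 12 vitelline membrane genes.

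The inner layer, the vitelline membrane, is secreted earlier, and its genes fell by less. Of 14 listed genes, 11 were lower and 3 higher in the mutant with Panx FL10B, with a median log2 change of -1.28. In the second pair 8 were lower and 4 higher, with a median of -0.44, and the difference of the 2 differences was called lower for 9 and higher for 2. Apart from the last genes of this paragraph, the log2 changes of the genes that fell were moderate. Vm32E went from 547 and 548 to 147.9 and 139 CPM (log2 -1.93, SE 0.0912, adjusted p = 1.70e-09) and Vm34Ca from 1988 and 2637 to 730.1 and 778 CPM (log2 -1.62). Vm26Aa went from 1463 and 1529 to 506 and 529.9 CPM (log2 -1.53). Femcoat, a late eggshell gene, and CG13114 stood apart in this list. Femcoat went from 248 and 474 to 3.14 and 3.17 CPM (log2 -6.83, SE 0.483, adjusted p = 1.21e-05), and CG13114 from 224 and 198 to 5.65 and 3.5997 CPM (log2 -5.49, SE 0.169, adjusted p = 2.44e-11). The 3 genes that rose, fs(1)N, fs(1)M3 and clos, include the terminal-pathway genes fs(1)N and fs(1)M3, whose products the germline makes. fs(1)N went from 296 and 313 to 525 and 528 CPM (log2 0.79) and clos from 368 and 384 to 739.9 and 734 CPM (log2 0.97).

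In the mutant pair, the summed level of follicle cell markers was lower and that of germline markers higher with Panx FL10B. In the second pair both sums were lower with Panx FL10B. There the follicle cell markers summed to between 7063 and 7340 CPM in W1118 and between 6602 and 6697 CPM in the heterozygote. The germline markers summed to between 3876 and 4013 CPM in W1118 and between 2890 and 3089 CPM in the heterozygote. The 6 follicle cell markers summed to between 5308 and 5661 CPM in the mutant and between 4014 and 4189 CPM with Panx FL10B, with 4 of 6 called lower. The 6 germline markers summed to between 2985 and 3079 CPM in the mutant and between 3622 and 3692 CPM with Panx FL10B, with 2 called higher and 2 lower. Of these markers, osk alone went from 890.2 and 898 to 1625 and 1714 CPM, a larger step than that of the sum. The higher sum was therefore not shared by the germline markers as a set. These sums moved by less than the chorion genes. Their part in the eggshell result was not tested.

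Beyond the lists, 518 genes with at least 10 CPM in the mutant were called lower both in the mutant pair and in the difference of the 2 differences, and 60 of them fell by at least 16-fold. Many of those are known by number only, and the ones named here were chosen after their values were seen. CG4009 went from 566 and 872 to 5.395 and 3.02 CPM (log2 -7.39, SE 0.261, adjusted p = 2.64e-10). CG13083 and CG13084 went from 710.2 and 1413 and from 682 and 1028 CPM to 9.16 and 7.34 and to 8.03 and 6.91 CPM. CG11381 was at 509.7 and 684 CPM in the mutant and 5.14 and 3.5997 CPM with Panx FL10B, CG15570 at 394 and 746 and 6.52 and 4.61 CPM, and CG4066 at 146 and 252 and 1.004 and 0.864 CPM. Like the chorion genes, they were high in the 6 libraries of the mutant, W1118 and the heterozygote with Panx FL10B, with CG4066 at 54.6 and 61.1 CPM in W1118 and 165 and 154 CPM in that heterozygote. Cad74A, a listed cadherin gene of the follicle cells that shape the dorsal appendages, was at 141 and 151 CPM and then 4.77 and 5.904 CPM (log2 -4.78, SE 0.169, adjusted p = 8.52e-11).

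Several genes that mature follicles use for ovulation were low as well. Of 8 tested octopamine and ovulation genes, 5 were lower and 2 higher with Panx FL10B, with a median log2 change of -1.11, and the difference of the 2 differences was called lower for 5. Oamb, the octopamine receptor of mature follicle cells, went from 12.6 and 16.6 to 1.38 and 0.576 CPM (log2 -3.84, SE 0.425, adjusted p = 1.50e-05), with -0.54 (SE 0.269, adjusted p = 0.143) in the second pair. Nox, an NADPH oxidase that follicle rupture needs, went from 26.2 and 45.4 to 4.27 and 2.02 CPM (log2 -3.47, SE 0.311, adjusted p = 2.54e-06), whereas it rose in the second pair (log2 0.96, SE 0.247). The matrix metalloproteinase Mmp2, which breaks down the posterior follicle wall, went from 49.2 and 35.4 to 20.6 and 22.03 CPM (log2 -0.995). Ilp8, an insulin-like peptide gene expressed in mature follicles, went from 20.3 and 26.6 to 2.01 and 0.7199 CPM (log2 -4.04, SE 0.341, adjusted p = 1.08e-06), and in the second pair the change was -0.06 (SE 0.209, adjusted p = 0.852). For Oamb, Nox and Ilp8 both libraries of the mutant with Panx FL10B lay below each of the other 6. CaMKII and SPR, the sex peptide receptor, rose, by log2 0.55 and 0.87. Leaving out any 1 of the 4 libraries left 1 of the 8 genes called higher.

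Many genes that license replication origins fell by moderate amounts. Of 28 listed genes of chorion gene amplification and origin licensing, 17 were lower and 2 higher, with a median log2 change of -0.47 against -0.02 over all tested genes. In the second pair 3 were lower and 2 higher, with a median of 0.10, and the difference of the 2 differences was called lower for 11 and higher for 2. Orc1, a subunit of the origin recognition complex, went from 132 and 149 to 74.7 and 88.4 CPM (log2 -0.79, SE 0.125, adjusted p = 0.000253) and Orc2 from 39.4 and 50.9 to 25.97 and 26.1 CPM (log2 -0.79). The loading factor dup, the fly Cdt1, went from 244 and 249.6 to 161 and 169 CPM (log2 -0.58) and its inhibitor geminin from 149 and 175 to 109 and 99.4 CPM (log2 -0.64). Of the Mcm helicase genes, Mcm2, Mcm3, dpa (Mcm4) and Mcm5 were called lower, and Mcm6 and Mcm7 had log2 values of -0.26 and -0.28 that did not pass. Myb, whose complex acts at the amplified chorion origins, rose from 130.0 and 135 to 194 and 194 CPM (log2 0.55, SE 0.0841, adjusted p = 0.000192). Without the first or second library of the mutant with Panx FL10B, 10 and 8 of the 28 were called lower, and without the second library of the mutant, 8.

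Cell cycle regulators were lower too, with 11 of 18 tested cyclin and egg activation genes called lower. Their median log2 change was -0.50, against -0.21 in the second pair with 6 lower and 1 higher, and the difference of the 2 differences was called lower for 7. CycE, the G1 cyclin that drives endocycles, went from 335 and 341 to 197 and 195 CPM (log2 -0.78, SE 0.0845, adjusted p = 9.33e-06) and its kinase Cdk2, listed as cdc2c, from 104.98 and 125 to 61.7 and 65.7 CPM (log2 -0.85, SE 0.113, adjusted p = 6.13e-05). The mitotic genes fzy, CycB3 and cdc2 (Cdk1) had log2 changes of -0.96, -0.76 and -0.73. CycA and CycB did not pass, with 0.20 (adjusted p = 0.145) and -0.13 (adjusted p = 0.404). The centromeric histone gene cid was among the genes with opposite directions, from 38.2 and 46.7 to 23.7 and 21.02 CPM (log2 -0.92, SE 0.164) in the mutant pair and from 37.8 and 34.9 CPM in W1118 to 54.3 and 52.7 CPM in the heterozygote with Panx FL10B (log2 0.56, SE 0.164). The histone variant gene His2Av went from 406 and 364 to 250.2 and 239 CPM (log2 -0.66).

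**Figure D4:**
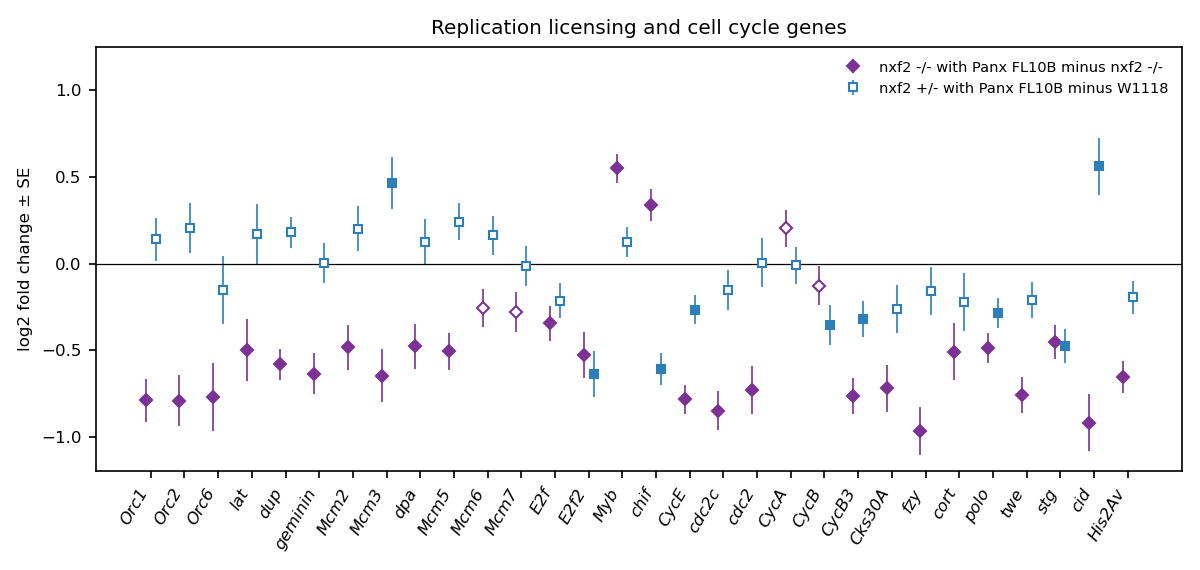
Log2 fold change with its standard error for 30 replication and cell cycle genes in the nxf2 mutant pair (diamonds) and the second pair (squares), with filled symbols for genes called. The diamonds of Orc1 to Mcm5 all lie below 0 while the squares of these genes, Orc6 apart, lie at or above 0, and Myb and chif are the called genes above 0 in the mutant pair.

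Several genes of the growing oocyte and nurse cells were higher. Of 13 germ plasm genes, 6 were higher and 2 lower with Panx FL10B, and the difference of the 2 differences was called higher for 5 and lower for 1. osk, which builds the germ plasm, went from 890.2 and 898 to 1625 and 1714 CPM (log2 0.90, SE 0.0918, adjusted p = 5.52e-06), while it was lower in the heterozygote with Panx FL10B than in W1118 (log2 -0.53, SE 0.0915). orb, a regulator of osk translation, went from 550.4 and 511 to 940.0 and 906 CPM (log2 0.80, SE 0.0886, adjusted p = 1.24e-05). nos and vas were lower, by log2 -0.54 and -0.36. yl, the yolk protein receptor of the oocyte, rose from 908 and 1074 to 1980.0 and 1959.7 CPM (log2 0.99, SE 0.148, adjusted p = 0.000160), and the clathrin gene Chc rose by 0.60. Of the yolk proteins that follicle cells and fat body make, Yp2 and Yp3 fell, by log2 -0.61 and -0.52, and Yp1 was at 2469 and 2618 and 2124 and 2194 CPM (log2 -0.24, adjusted p = 0.479). The yolk genes called lower, 2 of 8, numbered 0 without the first library of the mutant with Panx FL10B and 1 without its second or the first of the mutant. Of 19 tested early germline and meiosis genes, 4 were higher and 2 lower, against 17.3% and 20.1% of all tested genes. twe, the meiotic Cdc25 phosphatase, fell (log2 -0.76, adjusted p = 8.83e-05) and pum, a translational repressor, rose (log2 0.43, adjusted p = 0.00407, and 0.0581 without the second library of the mutant with Panx FL10B). bgcn and cona, both under 3 CPM, had log2 changes of 2.23 and 1.58. Of the early germline genes, 2 were called higher without the first library of the mutant with Panx FL10B, 0 without its second and 1 without the second of the mutant.

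The piRNA pathway showed changes in single genes and no common direction. The background for its list counts was 17.3% of all tested genes higher and 20.1% lower. In the silencing complex around Nxf2, Panx and Piwi, 2 of 8 genes were called, Panx itself and arx (Gtsf1, listed as CG3893). The latter went from 43.3 and 45.6 to 35.5 and 30.2 CPM (log2 -0.43, SE 0.156, adjusted p = 0.0431) and missed the threshold when any 1 of the 4 libraries was left out, with adjusted p between 0.0672 and 0.231. sov and mael were not called, at log2 0.28 (adjusted p = 0.162) and -0.07 (adjusted p = 0.603). Of 15 heterochromatin effectors 3 were higher and 1 lower, with the deacetylase gene Rpd3 at log2 -0.40 (adjusted p = 0.00337) and the methyltransferase gene G9a at 0.32 (adjusted p = 0.0102). egg, the Setdb1 methyltransferase gene of piRNA-guided silencing, was at 60.5 and 75.3 and 64.99 and 66.4 CPM (log2 -0.05, adjusted p = 0.788). Without the first or second library of the mutant with Panx FL10B the count of higher effectors fell to 0, with G9a at an adjusted p of 0.0641 and 0.0913.

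In the cytoplasm, AGO3, a partner of Aub in ping-pong amplification, went from 246 and 227 to 96.9 and 91.1 CPM (log2 -1.33, SE 0.157, adjusted p = 2.23e-05). It fell by a like amount in the second pair, from 266 and 277 CPM in W1118 to 97.2 and 80.1 CPM (log2 -1.62, SE 0.161), and the difference of the 2 differences was 0.29 (SE 0.222, adjusted p = 0.392). Low levels of AGO3 were also seen without Panx FL10B, at 87.2 and 132.7 CPM in attp2 and 92.6 and 87.2 CPM in the nxf2 knockdown. aub and papi rose, from 142 and 134 to 221 and 213 CPM and from 78.04 and 75.7 to 136 and 139 CPM (log2 0.65 and 0.84). In all, 4 of 18 nuage genes were higher and 2 lower. Of 9 primary processing genes 2 were higher and 3 lower. shu, a cochaperone that loads piRNAs onto PIWI proteins, went from 106 and 119 to 69.5 and 67.2 CPM (log2 -0.71, adjusted p = 0.000267) and the piRNA methyltransferase gene Hen1 from 24.3 and 24.3 to 10.04 and 8.93 CPM (log2 -1.35, adjusted p = 0.000408). Of 15 genes for the transcription and export of piRNA clusters 3 were higher and 2 lower. rhi, del and cuff, which act together at the clusters, had log2 values of -0.01, -0.01 and 0.54 and were not called. Of 9 tested nuclear RNA export genes 2 were higher and 2 lower. sbr, the general mRNA export receptor, was at 84.3 and 88.6 and 78.2 and 78.2 CPM (log2 -0.14, adjusted p = 0.264), and Ref1 (Aly) went from 926 and 842 to 554 and 562 CPM (log2 -0.66, adjusted p = 0.00406). The cluster genes called higher numbered 1 without the first library of the mutant or either library of the mutant with Panx FL10B, and the export genes called in each direction numbered 1 without any 1 of the 4 libraries.

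**Figure D5:**
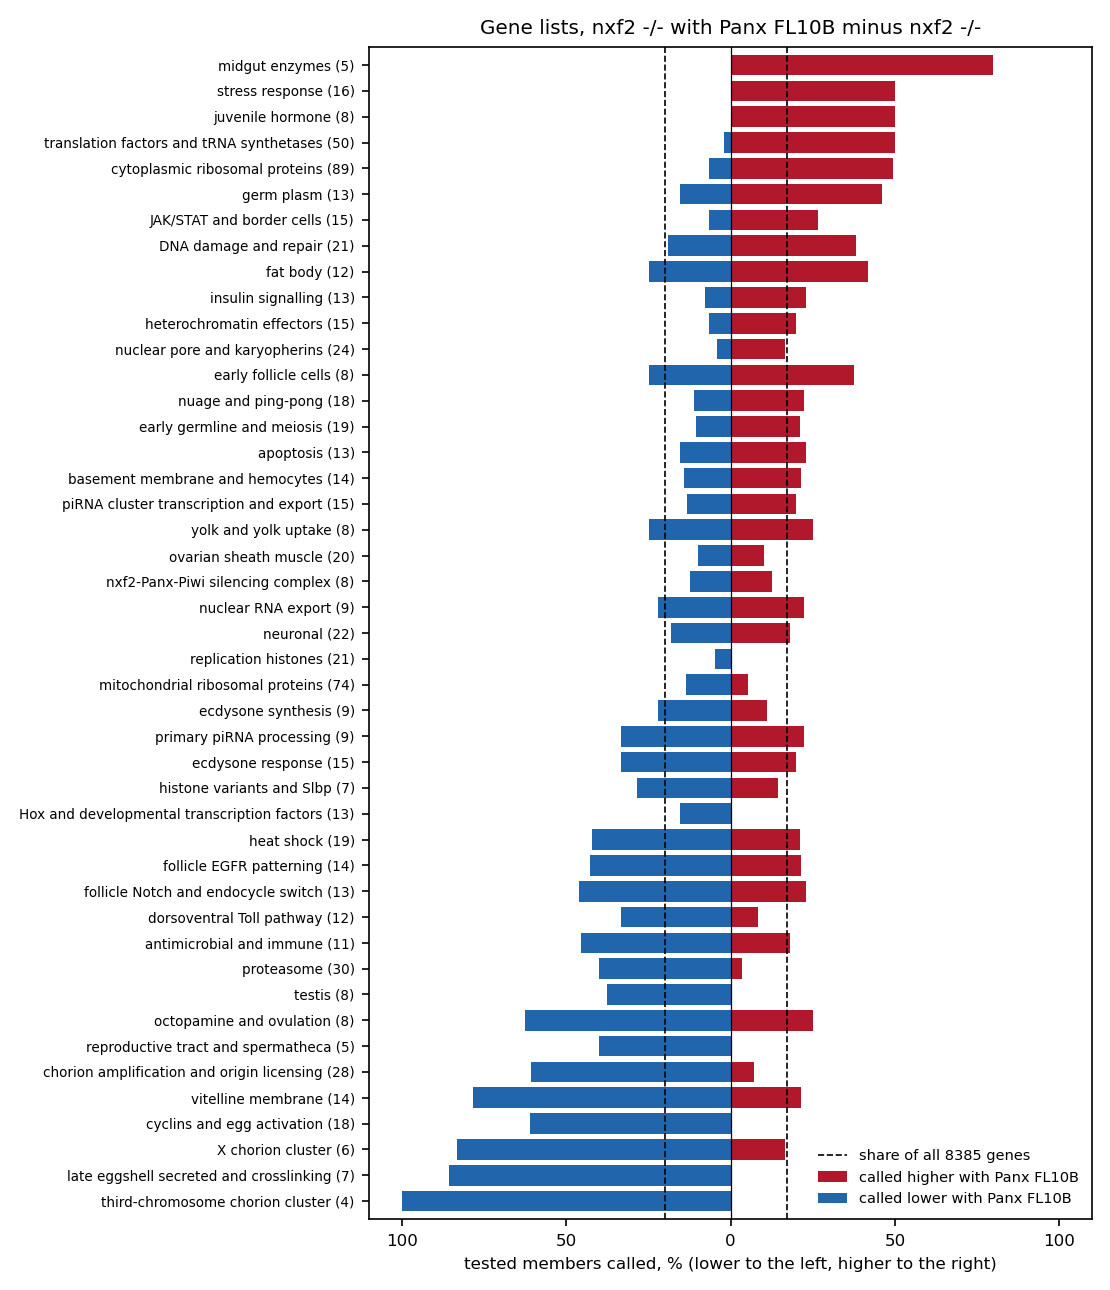
Share of the tested members of each gene list called higher (right) or lower (left) in the nxf2 mutant with Panx FL10B than in the nxf2 mutant, with the number tested in brackets, for the 45 lists with at least 4 tested members. Dashed lines mark the shares of all tested genes, 17.3% higher and 20.1% lower. The chorion, late eggshell, cyclin and vitelline membrane lists are at the foot, and the stress, juvenile hormone, translation and cytoplasmic ribosomal lists are near the top.

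Signalling lists of follicle cells moved both ways. Of 14 tested genes of EGFR patterning, which sets the dorsal side of the eggshell, 3 were higher and 6 lower, among the latter Cad74A and the feedback inhibitor sty (log2 -0.99, SE 0.1402, adjusted p = 9.89e-05). vn, an EGFR ligand, went from 6.04 and 5.32 to 1.63 and 1.296 CPM (log2 -1.94). Of 13 genes of the Notch-driven switch to endocycles 3 were higher and 6 lower. tsh rose from 5.702 and 3.12 to 19.3 and 18.9 CPM (log2 2.09, SE 0.279, adjusted p = 6.33e-05), and fzr (listed as rap), which the switch needs, went from 186 and 159 to 108 and 106 CPM (log2 -0.69). Fas3, an adhesion protein of young follicle cells, went from 106 and 77.3 to 47.9 and 44.2 CPM (log2 -0.99, adjusted p = 6.35e-05), and chinmo rose from 4.58 and 5.71 to 10.5 and 12.7 CPM (log2 1.17, adjusted p = 0.003603). In the dorsoventral Toll pathway 4 of 12 genes were lower and 1 higher, and the latter call was lost with DESeq2, with its size factors in edgeR, with no filter, with a replicate block over 12 libraries and without the first library of the mutant or either of the mutant with Panx FL10B. ndl, an eggshell protease gene of follicle cells, went from 409 and 345 to 171 and 187 CPM (log2 -1.08, SE 0.104), with a like fall in the second pair (log2 -1.27, SE 0.104). Without the first library of the mutant or the first of the mutant with Panx FL10B, 3 EGFR genes were called lower, and without the second library of the mutant or either of the mutant with Panx FL10B, 2 Toll pathway genes.

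Of 15 tested ecdysone response genes 3 were higher and 5 lower in the mutant pair, and 1 higher and 10 lower in the second pair. Eip74EF, a primary response gene, went from 62.8 and 41.4 to 17.9 and 15.6 CPM (log2 -1.64, SE 0.241, adjusted p = 0.000186) and by log2 -1.31 (SE 0.243) in the second pair. Cyp18a1, which breaks down ecdysone, went from 51.3 and 42.9 to 24.3 and 19.6 CPM (log2 -1.10, SE 0.183, adjusted p = 0.000387) and rose in the second pair (log2 0.85). Of 8 tested juvenile hormone genes 4 were higher. Met, a juvenile hormone receptor, went from 34.7 and 36.7 to 75.9 and 79.3 CPM (log2 1.12, SE 0.112, adjusted p = 4.76e-06), while its level was lower in the heterozygote with Panx FL10B than in W1118 (log2 -0.35, SE 0.12001). Without the second library of either mutant group 2 of these 8 were called higher, and without the first of the mutant or the second of the mutant with Panx FL10B 3 ecdysone response genes were called lower.

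Of 16 tested stress response genes 8 were higher in the mutant with Panx FL10B, and in the second pair 7 were higher and 1 lower. For this list the difference of the 2 differences was called higher for 4 and lower for 2, with a median of -0.12. Xrp1, a transcription factor of the p53 and ribosome stress responses, went from 114 and 116 to 362 and 376 CPM (log2 1.68, SE 0.105, adjusted p = 3.41e-08), against 0.80 (SE 0.111) in the second pair. The difference of the 2 differences was 0.89 (SE 0.151, adjusted p = 0.00116). Gclc, a glutathione synthesis gene, went from 133 and 128 to 222 and 218 CPM (log2 0.75, adjusted p = 6.50e-05). GstD1, a glutathione transferase gene, was already high in the mutant, at 321 and 399 CPM against 29.1 and 32.2 CPM in W1118, and stood at 551 and 547 CPM in the mutant and 609 and 630.1 CPM in the heterozygote with Panx FL10B. Atf3, a stress transcription factor named here after its values were seen, went from 44.8 and 32.6 to 111 and 104.5 CPM (log2 1.47, adjusted p = 9.33e-06). Without the second library of the mutant with Panx FL10B 5 of the 16 were called higher, and without the second of the mutant 4.

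Among 13 tested apoptosis genes 3 were higher and 2 lower, near the shares of all tested genes, 17.3% and 20.1%. The lower count fell to 0 or 1 without the second library of the mutant or either library of the mutant with Panx FL10B. The death activator rpr went from 4.25 and 3.25 to 14.4 and 15.98 CPM (log2 2.01, SE 0.2703, adjusted p = 6.69e-05) and rose by log2 2.15 (SE 0.522) in the second pair. hid, listed as W, did not pass, at 42.6 and 25.2 and 47.6 and 49.96 CPM (log2 0.52, adjusted p = 0.09204). Of 21 DNA damage and repair genes 8 were higher and 4 lower, and 2 or 3 were higher without the first mutant library or either library of the mutant with Panx FL10B. nbs, of the complex that senses double-strand breaks, went from 69.1 and 73.8 to 111 and 124 CPM (log2 0.72, SE 0.0987, adjusted p = 8.10e-05), and p53 from 8.16 and 11.4 to 19.6 and 17.4 CPM (log2 0.93, adjusted p = 0.00207). In the heat shock list, with 4 higher and 8 lower of 19, the constitutive chaperone gene Hsc70-4 went from 1314 and 1217 to 2859.5 and 2768 CPM (log2 1.15, SE 0.09398, adjusted p = 5.81e-07) and Hsp27 from 688 and 608 to 354 and 353 CPM (log2 -0.87, SE 0.113, adjusted p = 4.81e-05). Of its 8 lower genes 4 were near-identical Hsp70 copies, among them Hsp70Aa with no count in any Panx FL10B library, and their values are uncertain. Without the first mutant library or either library of the mutant with Panx FL10B, 5 of the 19 were called lower.

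Many genes of protein synthesis were higher, in the second pair too. Of 89 tested cytoplasmic ribosomal protein genes 44 were higher and 6 lower, with a median log2 change of 0.32, and in the second pair 63 were higher and 1 lower, with a median of 0.51. The difference of the 2 differences was called lower for 20 and higher for 2. RpS16 went from 47.2 and 54.3 to 131 and 145 CPM (log2 1.45, SE 0.125, adjusted p = 1.02e-06) and from 53.01 and 46.1 CPM in W1118 to 110.1 and 103 CPM in the second pair. RpS25 went from 102 and 118 to 267 and 266 CPM (log2 1.28, SE 0.121, adjusted p = 2.68e-06). RpS23 was an exception and fell, from 2181 and 2337 to 1335 and 1416 CPM (log2 -0.72, SE 0.0977). How any reads shared between similar ribosomal protein genes were counted was not tested. Without either library of the mutant with Panx FL10B 29 were called higher, and without the first library of the mutant 27.

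Translation factors and tRNA synthetases followed, with 25 of 50 higher and 1 lower, and 20 higher and 4 lower in the second pair. eIF-2alpha went from 187 and 202 to 311 and 317 CPM (log2 0.69, SE 0.0872, adjusted p = 4.00e-05). Karybeta3, an importin that brings ribosomal proteins into the nucleus, went from 497 and 502 to 992 and 974 CPM (log2 0.98, SE 0.106, adjusted p = 1.03e-05). The proteasome went the other way in the mutant pair, with 12 of 30 tested genes lower and 1 higher, 1 of them Prosalpha1, and 3 lower and 9 higher in the second pair. Prosbeta5, a catalytic subunit, went from 257 and 247 to 161 and 157 CPM (log2 -0.67, SE 0.0949, adjusted p = 0.000108). Without the first or second library of the mutant with Panx FL10B 4 and 7 proteasome genes were called lower, and without the second of the mutant 7. Of 74 mitochondrial ribosomal protein genes 4 were higher and 10 lower, shares below those of all genes.

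Of the 12 largest rises at 10 CPM or more, 11 were called higher in the second pair too. CG7196 and CG42329 had no count in the nxf2 mutant and stood at 24.1 and 28.9 CPM and 15.1 and 13.1 CPM with Panx FL10B, at least 146-fold and at least 78.5-fold higher at a floor of 3 counts over the group. In the heterozygote with Panx FL10B they were at 16.6 and 15.8 CPM and 3.41 and 4.86 CPM. cngl, which codes for a cyclic nucleotide-gated channel, went from 1.79 and 0.2597 CPM in the mutant to 127 and 120.4 CPM (log2 6.83, SE 0.314, adjusted p = 1.24e-09) and from 0.257 and 0 CPM in W1118 to 26.1 and 22.4 CPM in the heterozygote with Panx FL10B. CG15784 went from 29.3 and 36.6 to 319.7 and 295 CPM (log2 3.22, SE 0.142, adjusted p = 7.73e-10), with log2 2.57 (SE 0.168) in the second pair. Ant2, one of a pair of adjacent ADP/ATP carrier genes, went from 2.01 and 1.56 to 13.4 and 13.97 CPM (log2 2.92). CG32368, eys and CG18131 rose by log2 3.56, 3.48 and 2.87 to between 9.94 and 41.5 CPM. The small non-coding RNA genes snmRNA:254 and snmRNA:184, whose names are not among those left out, completed the list with Panx, and snmRNA:184 and Cyp6d2 were also called higher in the difference of the 2 differences. At 29.1 and 29.8 CPM in the mutant with Panx FL10B, snmRNA:184 was also high without it, at 22.2 and 23.3 CPM in attp2. In the nxf2 knockdown it was at 31.9 and 33.9 CPM. CG42329 was at 8.75 and 21.6 CPM in the nxf2 knockdown, though at 0.464 and 0.0916 CPM in attp2. None of the 12 genes lay within 10 genes of another in the gene order of RefSeq's Release 6 annotation.

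Cyp6d2 was the gene of the 12 not called in the second pair. This cytochrome P450 gene was at 1.34 and 0.2597 CPM in the mutant and 21.5 and 17.9 CPM with Panx FL10B (log2 4.53, SE 0.453, adjusted p = 4.29e-06), and at 8.23 and 4.901 CPM in W1118 and 3.41 and 4.56 CPM in the heterozygote with Panx FL10B (log2 -0.65, SE 0.423, adjusted p = 0.259). The difference of the 2 differences was 5.19 (SE 0.634, adjusted p = 8.28e-05). In total, 436 genes with at least 10 CPM in the mutant with Panx FL10B were called higher in both the mutant pair and that difference, 46 of them by at least 2-fold. Of these, CG18522 (AOX1), an aldehyde oxidase gene named after its values were seen, went from 13.5 and 14.3 to 101.4 and 95.5 CPM (log2 2.82, SE 0.158, adjusted p = 1.02e-08), with 0.81 (SE 0.172) in the second pair. ken, a repressor of the JAK/STAT pathway, rose from 109.6 and 104 to 270.1 and 258 CPM (log2 1.31, SE 0.122, adjusted p = 2.45e-06).

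Markers of other tissues were examined as well. The 5 neuronal markers summed to between 11.2 and 17.7 CPM in the mutant and between 41.04 and 45.2 CPM with Panx FL10B, and elav, which defines neurons, went from 15.2 and 8.57 to 42.7 and 39.7 CPM (log2 1.78, SE 0.238, adjusted p = 6.35e-05). elav made up most of that sum and was the 1 marker called of the 3 tested. Of 22 tested neuronal genes 4 were higher and 4 lower, with a median log2 change of -0.08, and 2 were called higher without any 1 of the 4 libraries. fne, an elav relative, went from 5.48 and 5.71 to 0.251 and 0.432 CPM and was also at 0.378 and 0.294 CPM in the heterozygote with Panx FL10B. In W1118 fne stood at 6.95 and 5.36 CPM. It was low without Panx FL10B too, at 0.649 and 0.641 CPM in attp2 and 0.23 and 0.59 CPM in the nxf2 knockdown. The 5 hemocyte markers summed to 5.84 to 10.1 CPM and then 20.1 to 23.04 CPM. Hml, of plasmatocytes, went from 3.24 and 4.16 to 10.3 and 12.5 CPM (log2 1.62, SE 0.312, adjusted p = 0.00111), and rose in the second pair as well (log2 2.15, SE 0.463, adjusted p = 0.00289). The 7 muscle markers summed to between 201.8 and 349.3 CPM in the mutant, where its 2 libraries differed, and between 350.2 and 361.8 CPM with Panx FL10B. The 5 fat body markers summed to between 723 and 911.1 CPM and then between 476.7 and 502.6 CPM. Within the fat body list Fbp1, whose product takes up larval storage proteins, was at 0.112 and 0 and then 4.27 and 4.46 CPM, a ratio of 72.5 (95% counting interval 12.6 to 2909) between the summed counts, while apolpp (listed as Rfabg) went from 217 and 105.1 to 35.5 and 31.5 CPM (log2 -2.27, SE 0.508, adjusted p = 0.0105). The 5 midgut markers summed to between 0 and 0.783 CPM and then between 3.74 and 4.52 CPM, and the spermathecal genes Send1 and Send2 and the testis genes sa, Mst84Da and dj had no count in either mutant group. In the second pair the midgut markers had no count in W1118 and summed to between 1.70 and 2.21 CPM in the heterozygote. The hemocyte sum there was 3.86 to 4.29 and then 7.21 to 9.46 CPM. The neuronal sum was 11.95 to 13.6 and then 12.5 to 14.9 CPM. The sums of muscle were 190 to 196 and then 199 to 209 CPM, and those of fat body 473 to 485 and then 601 to 607 CPM.

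The antimicrobial peptide gene Dro showed opposite directions in the 2 pairs. It was at 6.26 and 18.96 CPM in the mutant and 0.251 and 0.576 CPM with Panx FL10B (log2 -4.90, SE 0.645, adjusted p = 6.56e-05), and rose from 1.03 and 0.306 CPM in W1118 to 11.7 and 9.28 CPM in the heterozygote with Panx FL10B (log2 4.13, SE 0.686, adjusted p = 0.000540). Of 11 tested immune genes 5 were lower and 2 higher in the mutant pair, and 1 lower and 3 higher in the second. Without the first or the second library of the mutant with Panx FL10B 3 were called lower. The NF-kB gene Rel rose in the mutant pair, from 65.7 and 58.04 to 98.4 and 106 CPM (log2 0.72, SE 0.124, adjusted p = 0.000503).

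Finally, 8 genes had no count in W1118 and a mean of at least 10 CPM in both nxf2 mutant groups. Of these, 1 was called between the mutant groups, against 37.4% of all tested genes. The filter asked for RNA in both mutant groups and so left out genes that fell to near absence, such as CG4970. The count is therefore a description. dys, a bHLH-PAS transcription factor gene, was at 66.1 and 73.5 CPM in the mutant and 76.7 and 85.8 CPM with Panx FL10B (log2 0.22, SE 0.124, adjusted p = 0.186), and at 17.4 and 18.99 CPM in the heterozygote with Panx FL10B. Syt4, a synaptotagmin gene, was at 58.6 and 60.5 CPM, 54.1 and 48.7 CPM and 15.3 and 13.5 CPM in the same order (log2 -0.21, SE 0.459, adjusted p = 0.7497), and CG31202 at 37.8 and 34.7, 30.6 and 26.5 and 9.08 and 10.6 CPM (log2 -0.34, SE 0.221, adjusted p = 0.243). The levels of these 3 genes in the 2 mutant groups differed by less than 1.5-fold with or without Panx FL10B, and the heterozygote stood between them and W1118. CG1090 was the gene called, from 70.1 and 57.1 to 31.7 and 29.9 CPM (log2 -1.04, SE 0.192, adjusted p = 0.000989). Other genes with RNA in the mutant were low in both groups with Panx FL10B. Of these, CG4970 had no count in W1118 and Sh was at 0.772 and 0.766 CPM there. Low RNA of CG4970 and Sh was thus seen in W1118 as well, which differs from the mutants in nxf2 genotype. For their fall within the mutant pair, Panx FL10B and library set cannot be told apart. CG4970 was at 97.2 and 44.02 CPM in the mutant, 0.753 and 0 CPM with Panx FL10B and 0.568 and 0.294 CPM in the heterozygote with Panx FL10B (log2 -7.41, SE 0.662, adjusted p = 5.43e-05). The potassium channel gene Shaw was at 203 and 37.5 CPM in the mutant, whose libraries differed widely, and 0.376 and 0.288 CPM with Panx FL10B (log2 -8.43, SE 1.21, adjusted p = 0.00126), and Sh, another potassium channel gene, went from 15.4 and 14.7 to 2.26 and 2.02 CPM (log2 -2.80, SE 0.284, adjusted p = 5.13e-06). The Hox gene Dfd was the converse, at 67.9 and 73.5 CPM in W1118 and at most 0.502 CPM in the other 3 groups. CG12708 was likewise at 29.6 and 31.2 CPM in W1118 and 0.224 and 0.779 CPM in the mutant, with 1.13 and 0.864 CPM with Panx FL10B. Whether the W1118 stock differed from the mutants in background apart from nxf2 was not tested.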

How the data were processed

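Total RNA of ovaries was turned into libraries with not-so-random primers, per the labels' protocols. The table the authors deposited holds whole-number read counts per gene, whose totals differ between libraries, and was used as not normalised. Per the submitters' processing notes, all 12 libraries went through bcl2fastq 1.8.4, cutadapt 1.16 and STAR 2.5.2a against the dm3 build, and featureCounts 1.6.1 and deepTools 2.5.7 are named for the 8 libraries without Panx FL10B. For the other 4 no counting tool is named.

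The counts were fitted with edgeR 4.0.16 in R 4.3.3 (TMM scaling, filterByExpr, robust quasi-likelihood) as 1 model of 12 libraries and 6 groups, with p-values adjusted by Benjamini and Hochberg over 8638 tested genes, 253 of which were small RNA genes and were left out of what is counted and printed. The common biological coefficient of variation was 0.102. Of the 15446 genes, 1698 had no count. Over the 8 libraries of the 4 groups, 3 counts corresponded to between 0.335 and 0.772 CPM, and floors and intervals cover counting error only. The procedure was tested on simulated data. Alternatives were another scaling, filter or tool (DESeq2 1.42.0), a fit of the compared groups alone, a replicate block, and leaving out each library.

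The genes and lists were chosen with earlier results of these data known. Named were nxf2, Panx, Nxt1 and piwi; the 12 largest rises and falls among called genes with separate groups and at least 10 CPM; from each list with a call, its 2 members of lowest p; and the 6 largest in each direction of the difference of the 2 differences. Other list members and genes were picked for naming after their values were seen. A planned motif search in chorion gene promoters was not run, and coordinates are not given because the annotation used here is of another build. Current names came from RefSeq and Ensembl tables.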

Additional observations from a re-analysis of the deposited data

Results flagged for a closer look

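For 62 named genes the difference in the mutant pair was not the same as in the second pair, whose groups also differ in nxf2 genotype. The threshold was an adjusted p under 0.05 for the difference of the 2 differences in edgeR's quasi-likelihood test. The values below are that difference of log2 fold changes, mutant pair minus second pair, and where a group has no count the fitted value depends on the prior count and is no bound.

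The eggshell genes had the values -8.83 for Muc4B, -8.05 for Cp16, -7.73 for Cp38, -7.45 for CG13114, -7.33 for Muc12Ea, -6.27 for Cp19, -5.93 for Cp36 and -1.51 for Vm32E. Genes of late follicles and their neighbours in the lists had -5.33 for Cad74A, -4.43 for Nox, -3.98 for Ilp8, -3.30 for Oamb, -1.95 for Cyp18a1 and -0.87 for Fas3.

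Among cell cycle and chromatin genes the values were -1.48 for cid, -0.70 for cdc2c, -0.55 for twe, -0.52 for CycE, -0.47 for Rpd3, -0.46 for His2Av, 0.43 for Myb, 0.63 for nbs and 0.80 for G9a. Germline and piRNA genes had 1.43 for osk, 0.88 for orb, 0.95 for pum, 0.72 for yl, 0.60 for papi and -0.59 for shu. For nxf2 the value was 0.90, since its RNA was lower in the heterozygote with Panx FL10B than in W1118 while the mutant groups were not called different.

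Stress, signalling and hormone genes had 0.89 for Xrp1, 0.83 for Gclc, 0.65 for Hsc70-4, -0.74 for Hsp27, 0.96 for foxo, 0.77 for ken, 1.1 for tai, 1.83 for tsh, 1.93 for chinmo, 1.47 for Met and 2.49 for JhI-26. Genes of protein and RNA handling had -0.87 for Prosbeta5, -0.80 for mRpL23, -0.74 for Ref1 and 0.50 for Karybeta3.

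The genes chosen for the size of this difference, each near absent in at least 1 of the 4 groups or low outside W1118, had -12.14 for CG4970, -11.29 for Cyp9b2, -10.01 for Syt4, -9.92 for dys, -9.60 for CG31202, -9.56 for CG1090, 11.32 for Dfd, 10.36 for CG13532, 4.97 for CG12708, 4.29 for CG3323 and 4.0 for mthl8. The remaining genes were Dro at -9.02, CR43482 at -5.70, w at -4.84, Sh at -3.59, snmRNA:184 at 1.74 and Cyp6d2 at 5.19.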

How the results depend on the processing

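Leaving out 1 library gave between 1873 and 2475 called genes in the mutant pair, between 1280 and 1638 in the second pair and between 931 and 1487 in the difference of the 2 differences. With only the groups compared, the second pair had 4195 calls and the difference of the 2 differences 3042, and with a replicate block in that fit 4269 and 3009. The other settings kept the 3 counts within 1.5 times. In the mutant pair DESeq2 called 2625 genes, the compared groups alone 3797, and the fit without the genes near absent in the Panx FL10B libraries, added after seeing the data, 3089. Within the mutant pair and the second pair, deviations of same-numbered libraries correlated at 0.0249 and -0.00382, so the replicate numbers showed no pairing there. Same-numbered libraries within a library set were not compared. The replicate block over 12 libraries gave 3102, 2554 and 1741 calls. Among the 122 named genes, no called direction in the mutant pair reversed. Directions of the other called genes were not compared across settings. Across settings other than leaving out a library, 1422 comparisons of named genes kept their side of the threshold, 9 lost it and 6 gained it, and with a library left out the numbers were 462, 25 and 1. With a library left out, 129 counts of list members fell by over 1.5 times, 6 rose by as much and 241 did neither. With no filter on low counts the differences of the 2 differences for CG13532, CG4970, Syt4 and CG3323 were 10.37, -12.16, -10.03 and 4.28, close to the values with the filter, with adjusted p of 0.121, 0.16, 0.0722 and 0.0846, and CG4970 had 0.231 with only the groups compared. With 2 libraries a group and 3811630 counts in the shallowest, small changes of genes near the floor were not detectable.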

Other observations

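In the insulin list 3 of 13 tested genes were higher and 1 lower, against 17.3% and 20.1% of all tested genes. The transcription factor gene foxo, which insulin signalling restrains, went from 98.2 and 87.3 to 138 and 128 CPM (log2 0.52, adjusted p = 0.001101 by edgeR's quasi-likelihood test). Without the second library of either mutant group 1 of the 13 was called higher. Of 24 nuclear pore and karyopherin genes 4 were higher and 1 lower. Without the first library of the mutant or either of the mutant with Panx FL10B 2 were called higher, with only the groups compared 8, and with a replicate block in that fit 9. The lower call was lost without the second library of the mutant or either of the mutant with Panx FL10B. Of 15 JAK/STAT and border cell genes 4 were higher and 1 lower, the latter lost without the first library of the mutant with Panx FL10B, and tai, a steroid hormone coactivator of border cells, went from 56.7 and 60.4 to 89.5 and 96.3 CPM (log2 0.67, adjusted p = 0.001101). JhI-26, a juvenile hormone-inducible gene, went from 2.57 and 1.69 to 9.41 and 10.1 CPM (log2 2.17, adjusted p = 0.00641). RpL22-like, a ribosomal protein paralog known from the germline, was at 0.335 and 0.1299 CPM in the mutant and 8.03 and 6.91 CPM with Panx FL10B.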
